A study of Mus musculus with 20 samples.

Results

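Tabby and wild-type (WT) mouse footpad skin was compared before and just after birth, at E17.5, late in gestation, and at P1, postnatal day 1, with the stages pooled. The comparison used 8 of the 20 arrays of the study, all those whose titles name footpads of either genotype at E17.5 or P1, 4 from Tabby and 4 from WT animals. Tabby mice carry a mutation in Eda on the X chromosome. All animals, Tabby and WT, were labelled as strain C57BL6/J, and no label gives their sex. Each combination of genotype and stage had 2 arrays labelled as biological replicates, and the labels do not say whether a replicate was 1 animal or a pool. Total RNA of dissected footpad skin was labelled with Cy3 and hybridised beside a common Cy5 reference, pooled RNA of mouse cell lines mixed with RNA of embryonic stem cells. The other 12 arrays hold the same genotypes at P3, P5 and adult age (P56), and were used here only to follow the probes found at the earlier stages.

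Eda encodes ectodysplasin, a ligand of the tumour necrosis factor family that acts through its receptor Edar, the adaptor Edaradd and NF-kB in the epithelium of skin appendages. The pathway takes part in forming the placodes of hair, teeth and eccrine sweat glands, and mice lacking it have no sweat glands in their footpads. In WT footpads the glands bud from the epidermis in late gestation, extend and coil after birth and become secretory in the following weeks. The tissue was whole footpad skin, so a lower signal can come from fewer cells of a type or from less RNA per cell, and these cannot be told apart.

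The scanner files name each probe by an identifier and give its 60-base sequence, with no gene. No probe was assigned to a gene here, so the level of Eda, the skin markers of the tissue and the members of the Eda pathway were not analysed here, and probes are described by sequence and signal. The array held 42006 probes, and 29814 that were well above background in the Cy3 channel on at least 2 of the 8 arrays and measured in every group were tested. Between 27286 and 29063 probes per array were well above background. The median Cy3 signal was 133 to 138 at E17.5 and 192.1 to 217.9 at P1. The number of arrays, 2 per group, limits the precision of every value. Each stage was hybridised on a slide of its own, so stage and slide cannot be told apart. On both slides WT samples lay at positions 1 and 2 and Tabby samples at positions 3 and 4, so genotype and position cannot be told apart either.

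2 measures were set side by side: the log2 Cy3 signal minus the 75th percentile of its array, and the log2 ratio of footpad to reference. The SD of the difference between replicate arrays over all probes, for the ratio, was 0.35 for WT E17.5, 0.35 for Tabby E17.5, 0.38 for WT P1 and 0.33 for Tabby P1. The Tabby E17.5 pair was therefore not noisier than the WT pair with the scanner software's own ratio, while with normexp background correction and loess its SD was 0.43 against 0.14 for WT E17.5. Tabby E17.5 replicate 2 had 43 outlier spots, and the other 7 arrays had 2 to 8. The reference channel of the E17.5 slide stood apart: of 28280 probes, 1238 (4.38%) differed at least 4-fold in Cy5 signal between the E17.5 and P1 slides (r = 0.943 across probes), against 23 (0.0813%) between the P1 and P3 slides (r = 0.998). A ratio was for this reason compared between genotypes within a slide, and its level was not compared between E17.5 and the other stages.

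The probes on which the comparison turns are printed first, since their sequence is their identity here. Capitals mark AATAAA, the common signal for cleavage and polyadenylation near the 3' end of a transcript, where the probe holds it on the printed strand; ATTAAA, its main variant, was searched as well and found in none of those printed. AATAAA was present in 6.93% of all probes and its reverse complement in 3.36%, and ATTAAA in 3.19% and 2.3%. The first 5 were called lower in Tabby over both stages, and 2 of them hold AATAAA, which describes the probes and no more.
Z00077373-1: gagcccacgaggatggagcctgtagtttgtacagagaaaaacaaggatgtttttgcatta
Z00036698-1: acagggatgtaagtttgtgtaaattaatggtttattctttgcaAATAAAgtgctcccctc
Z00022365-1: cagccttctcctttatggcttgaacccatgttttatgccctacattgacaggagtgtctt
Z00054739-1: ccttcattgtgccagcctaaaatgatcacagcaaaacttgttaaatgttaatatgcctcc
Z00023123-1: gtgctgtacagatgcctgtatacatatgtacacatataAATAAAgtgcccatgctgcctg
The next 3 were called lower at P1 by both measures.
Z00020870-1: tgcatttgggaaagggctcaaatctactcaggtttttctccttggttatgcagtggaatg
Z00025973-1: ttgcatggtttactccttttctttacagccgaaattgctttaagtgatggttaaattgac
Z00024139-1: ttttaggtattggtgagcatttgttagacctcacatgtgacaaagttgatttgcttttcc
The last 5 show where the measures or the stages parted.
Z00074831-1: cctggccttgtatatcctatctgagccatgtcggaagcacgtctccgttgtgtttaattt
Z00044657-1: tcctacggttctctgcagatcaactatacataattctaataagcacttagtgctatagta
Z00041605-1: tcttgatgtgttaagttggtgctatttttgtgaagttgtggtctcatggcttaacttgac
Z00061353-1: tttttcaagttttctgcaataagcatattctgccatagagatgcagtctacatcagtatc
Z00025024-1: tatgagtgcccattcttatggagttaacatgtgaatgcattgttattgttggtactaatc
None of these 60-base sequences shared 30 bases with any other probe of the array on the printed strand.

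With stage as a blocking factor, 4 of 29814 probes (0.0134%) were called by Cy3 signal and 3 (0.0101%) by ratio at an adjusted p under 0.05 (limma, Benjamini-Hochberg over all probes tested). All of these were lower in Tabby, 2 were called by both measures, and no probe was called higher by limma in either. At an unadjusted p under 0.05 there were 1659 probes by Cy3 signal (5.56%) and 1781 by ratio (5.97%). The median difference over all probes was 0.00 in Cy3 signal and 0.01 in ratio on the log2 scale, with 14562 probes lower and 15252 higher in Cy3 signal. In the Cy5 channel, which per the labels held the same reference RNA beside both genotypes, limma called no probe (1115 at an unadjusted p under 0.05, 3.74%). The 5 probes called by at least 1 measure had both Tabby arrays below both WT arrays at each stage and in each measure. With normexp background correction of the mean signals limma called 0 probes by Cy3 signal, with 449 at an unadjusted p under 0.05.

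Z00077373-1 had the largest difference. Its Cy3 signal was 259 and 379 in WT and 15.1 and 7.83 in Tabby at E17.5, and 687 and 426 in WT and 7.87 and 8.98 in Tabby at P1. The genotypes did not overlap, and the probe was well above background on 4 of 4 WT arrays and on 0 of 4 Tabby arrays. At E17.5 the signal was at least 14-fold lower in Tabby on the scale of the Cy3 signal. After loess and Aquantile normalization, which no dye swap balanced, this bound was 14.1-fold. For such a bound the dim group was set, per array, to the higher of its own signal and the lowest signal of any probe well above background. At P1 that lowest signal was 6.78 and 8.98 on the Tabby arrays, against 32.77 and 34.3 on the WT arrays. Brighter probes were not flagged on the Tabby P1 arrays, among them Z00022365-1 with a mean Cy3 signal of 17. No bound is therefore given at P1. The fitted difference was -5.41 ± 0.34 (SE) in log2 Cy3 signal (adjusted p = 0.00483) and -6.04 ± 0.15 in log2 ratio (adjusted p = 7.9e-05). The reference was not well above background for this probe on any of the 8 arrays, with Cy5 signals of 3.91 to 13, so its ratio rests on the Cy3 channel. On the Tabby arrays neither channel was well above background, and the mean log2 ratio was 0.13 at E17.5 and 0.06 at P1. The SE and the calls of the ratio therefore rest partly on values at background and are no independent second measure. The Cy3 call was lost in 5 of 20 alternatives, among them without WT P1 replicate 2 or Tabby P1 replicate 2 (adjusted p = 0.0502 and 0.0645) and with normexp (-1.16, adjusted p = 0.612), and it held without background subtraction at a difference of -1.80 (adjusted p = 0.00622). The ratio call held in all 20, with its size down to -2.05 with normexp and loess and -2.22 without background subtraction.

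Z00036698-1 was measured well above background on all 8 arrays and was called by both measures. At E17.5 its Cy3 signal was 686 and 787 in WT against 119 and 109 in Tabby, and 1265 and 1168 against 227 and 217 at P1. Replicates lay close together and every Tabby array lay below every WT array. In log2 Cy3 signal relative to the array, WT stood at -1.23 ± 0.14 (SD, n = 2) and Tabby at -3.90 ± 0.08 at E17.5, and WT at -1.08 ± 0.12 and Tabby at -3.51 ± 0.14 at P1. The pooled difference was -2.56 ± 0.09 (SE) in Cy3 signal (adjusted p = 0.000263) and -2.43 ± 0.09 in ratio (adjusted p = 0.000426). Its reference signal was 187 to 259 on the 8 arrays and differed between genotypes by -0.11 in log2 Cy5 signal. The difference at P1 minus that at E17.5 was 0.24 ± 0.18 in Cy3 signal (adjusted p = 1). It was lower in Tabby in all 20 alternatives of each measure. Its call was lost in 1 of 20 by Cy3 signal, normexp (-1.42, adjusted p = 0.612), and in 1 of 20 by ratio.

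Z00022365-1 was dimmer. WT footpads gave a Cy3 signal of 76.6 and 91 and Tabby footpads gave 4.87 and 4.44 at E17.5, and 154 and 149 against 14.8 and 19.2 at P1. It was well above background on 4 of 4 WT arrays and 0 of 4 Tabby arrays. At E17.5 this gave a signal at least 3.74-fold lower in Tabby, both on the scale of the Cy3 signal and after loess and Aquantile normalization. As for Z00077373-1, no bound is given at P1. The pooled difference was -3.65 ± 0.23 in Cy3 signal (adjusted p = 0.00483) and -3.65 ± 0.36 in ratio (adjusted p = 0.131), and the Cy3 signal alone was called. The Cy3 call was lost in 3 of 20 alternatives, with normexp at a difference of -0.15 (adjusted p = 0.881), and the difference was -0.68 without background subtraction (adjusted p = 0.0144). The ratio was called in 4 of 20, among them the deposited value table (-3.11, adjusted p = 0.0494). Its reference signal was low, 10.9 to 36.6, and well above background on 2 of the 8 arrays.

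Z00054739-1 was called by Cy3 signal alone. The Cy3 signal at E17.5 was 191 and 226 in WT and 47.5 and 48.3 in Tabby, and 549 and 628 in WT and 268 and 159 in Tabby at P1. Signal was higher at P1 than at E17.5 in both genotypes, and the genotypes did not overlap within a stage. The difference was -1.80 ± 0.16 in Cy3 signal (adjusted p = 0.0482) and -2.12 ± 0.29 in ratio (adjusted p = 0.288), and the call was lost in 12 of 20 alternatives, 7 of them each leaving out 1 of the arrays. The mean log2 ratio was 5.79 in WT and 3.29 in Tabby at E17.5, and 6.34 and 4.60 at P1. The reference signal was thus far below the Cy3 signal, and the ratio adds little to the Cy3 reading.

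Z00023123-1 was called by ratio alone and had the smallest difference of the 5. Cy3 signals at E17.5 were 47.3 and 44.9 in WT and 38.2 and 33.9 in Tabby, and 85.1 and 106 in WT and 67.6 and 52.3 in Tabby at P1. Its log2 ratio was -0.48 and -0.46 in WT and -1.11 and -1.07 in Tabby at E17.5, and -2.07 and -1.98 in WT and -2.61 and -2.62 in Tabby at P1. Replicates lay close together in ratio, and the pooled difference was -0.61 ± 0.04 (adjusted p = 0.0342). In Cy3 signal it was -0.50 ± 0.10 (adjusted p = 0.439), and the ratio call was lost when any 1 of the 8 arrays was left out (adjusted p from 0.0642 to 0.346).

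**Figure D1:**
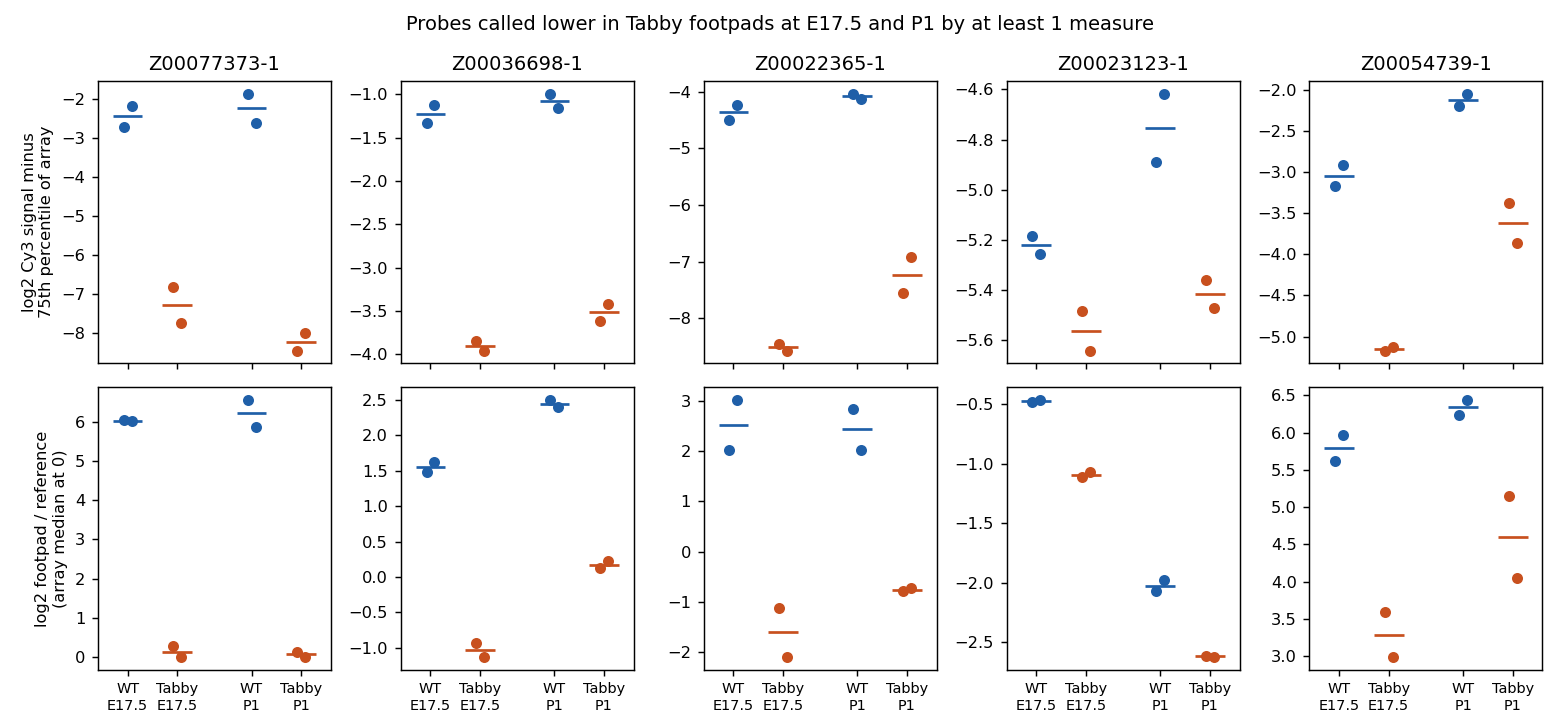
Log2 Cy3 signal relative to the array's 75th percentile (top) and log2 ratio of footpad to reference (bottom) for the 5 probes, 1 point per array with the group mean of 2 as a line, blue for WT and orange for Tabby; the vertical axes differ between panels. Both Tabby points lie below both WT points at each stage in every panel, and the gap is widest for Z00077373-1 and narrowest for Z00023123-1.

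Over the 5 probes the pooled differences ran from -5.41 to -0.50 in Cy3 signal and from -6.04 to -0.61 in ratio. The plot of both measures for all probes shows the 4 with the largest differences outside the main cloud on the lower side. Probes without a pooled call lay as far out as Z00054739-1. Among them were Z00020870-1 (-2.96 in Cy3 signal and -2.15 in ratio) and Z00026540-1 (-1.97 and -2.60).

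**Figure D2:**
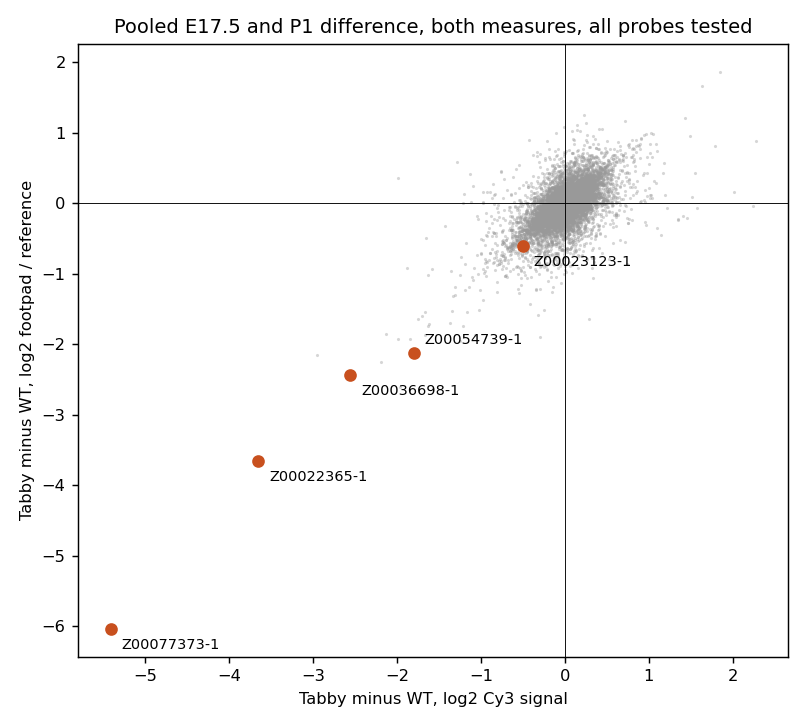
Pooled Tabby minus WT difference in log2 ratio (vertical) against that in log2 Cy3 signal (horizontal), 1 grey point for each of the 29814 probes tested and orange points for the 5 called probes. Z00077373-1, Z00022365-1, Z00036698-1 and Z00054739-1 lie far into the lower left, while Z00023123-1 lies at the edge of the cloud.

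By the background flag of the Cy3 channel, 7 of 42006 probes (0.0167%) were well above background on all 4 WT arrays and on 0 of 4 Tabby arrays, and 0 showed the reverse. This choice fixes a lower Cy3 signal in Tabby, so no size is drawn from it. Z00077373-1 and Z00022365-1 were among the 7. The others were Z00026540-1, Z00048378-1, Z00060986-1, Z00062081-1 and Z00066282-1, none of them called in the pooled comparison. By ratio, 5 of the 7 were lower in Tabby at P1, while Z00048378-1 and Z00062081-1 were higher by 0.45 ± 0.14 and 0.65 ± 0.79 (SE).

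A wider set was taken by separation alone. At both stages and in both measures 395 probes (1.32%) had both Tabby arrays below both WT arrays, and 377 (1.26%) had both above, so the direction was close to balanced over the array. Among those at least 2-fold apart in both measures, 22 of the 29814 probes tested were lower and 2 were higher in Tabby. The 22 included 4 of the 5 called probes, and their pooled Cy3 differences reached from -5.41 to -1.02. The 2 higher probes were Z00050103-1, with a pooled difference of 1.44 in Cy3 signal and 1.21 in ratio (adjusted p = 0.0814 and 0.336), and Z00051517-1, with 1.64 and 1.67 (adjusted p = 0.556 and 0.427).

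Within E17.5, 3 probes (0.0101%) were called lower by Cy3 signal, Z00022365-1, Z00074831-1 and Z00036698-1, and none higher. By ratio 2 (0.00671%) were called lower, Z00077373-1 and Z00036698-1, and none higher. At an unadjusted p under 0.05 there were 649 probes by Cy3 signal (2.18%) and 1182 by ratio (3.96%). The stage differences of Z00036698-1 were -2.68 ± 0.13 in Cy3 signal (adjusted p = 0.00424) and -2.59 ± 0.10 in ratio (adjusted p = 0.00437). The ratio of Z00077373-1 differed by -5.91 ± 0.23 (adjusted p = 0.00437), with neither channel well above background on the Tabby arrays. Leaving out any 1 of the 4 arrays of E17.5 ended both ratio calls, and leaving out WT replicate 1 or Tabby replicate 2 ended all 3 Cy3 calls.

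Z00074831-1 was lower in Tabby at E17.5 and not at P1. Its Cy3 signal was 67 and 56.6 in WT against 4.65 and 4.39 in Tabby at E17.5, both Tabby values being the scanner software's surrogate for a signal at background, and 197 and 231 against 222 and 146 at P1. The genotypes were apart at E17.5 and overlapped at P1. The difference at E17.5 was -3.75 ± 0.15 in Cy3 signal (adjusted p = 0.00329) and -3.70 ± 0.60 in ratio (adjusted p = 0.623), and at P1 it was -0.23 ± 0.15 in Cy3 signal (adjusted p = 0.713). As a bound, the E17.5 signal was at least 2.72-fold lower in Tabby after loess and Aquantile normalization (2.76-fold on the scale of the Cy3 signal). Its reference signal was 3.78 to 13.4 on the E17.5 slide and 14306 to 19294 on the P1 slide, a difference between slides that holds for both genotypes and whose part in the result was not tested.

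At P1 more probes were called. By Cy3 signal 53 of 29814 (0.178%) passed, 25 lower (0.0839%) and 28 higher (0.0939%) in Tabby, and by ratio 6 (0.0201%) passed, all lower. At an unadjusted p under 0.05 there were 2577 probes by Cy3 signal (8.64%) and 1998 by ratio (6.7%). 5 probes were called lower by both measures: Z00077373-1, Z00036698-1, Z00020870-1, Z00025973-1 and Z00024139-1. The Cy3 count was 24 without WT replicate 1, 132 without WT replicate 2, 31 without Tabby replicate 2 and 7 with the 4 arrays of P1 fitted alone.

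The lower and the higher probes differed in the reference channel. For the 25 lower probes the median P1 difference was -1.74 in Cy3 signal, -1.56 in ratio and -0.07 in Cy5 signal. All 25 were lower in ratio as well, 18 of them by at least 1 on the log2 scale. For the 28 higher probes the median was 1.29 in Cy3 signal, 0.13 in ratio and 1.30 in Cy5 signal. In the Cy5 channel 28 of 28 were higher beside Tabby RNA, 20 of them by at least 1, and their ratio was higher in 18 and by at least 1 in 2. Over all probes tested the median P1 difference was 0.01 in Cy3 signal, 0.00 in ratio and 0.00 in Cy5 signal. Of these 29814 probes, 14914 were higher in Cy5 signal beside Tabby RNA. The ratio contains the Cy3 signal, and 23444 of the 29814 had the same sign in both. The reference itself differed at P1 for 20 probes (0.0671%; 1422 or 4.77% at an unadjusted p under 0.05), all higher on the Tabby arrays, and 10 of these were among the 28. The 28 were thus higher in Cy3 together with a channel that was not labelled as holding footpad RNA, and the part of this shared signal in their Cy3 difference was not tested.

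Z00061353-1 had the largest of these differences. Its Cy3 signal at P1 was 6.88 and 7.27 in WT and 296 and 80.2 in Tabby, and its Cy5 signal was 7.08 and 6.91 beside WT and 326 and 83.9 beside Tabby. Both channels were bright on the 2 Tabby P1 arrays and at the surrogate background value on the other 6 of the 8 arrays. The difference was 4.46 ± 0.46 in Cy3 signal (adjusted p = 0.0345), 4.58 ± 0.51 in Cy5 signal (adjusted p = 0.1) and -0.10 ± 0.07 in ratio (adjusted p = 0.798). The next in size were Z00064673-1, 3.81 in Cy3 signal and 0.15 in ratio, and Z00044657-1, 3.13 and -0.15.

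Z00025024-1 showed the converse, a ratio called at P1 without a difference in footpad signal. Its Cy3 signal was 200 and 179 in WT and 239 and 147 in Tabby, and the genotypes overlapped. Its Cy5 signal was 7.17 and 7.11 beside WT and 61.2 and 42.4 beside Tabby. The ratio differed by -2.85 ± 0.15 (adjusted p = 0.0143), the Cy3 signal by 0.00 ± 0.18 (adjusted p = 0.999) and the Cy5 signal by 2.85 ± 0.11 (adjusted p = 0.0133). The ratio call was lost when any 1 of the 4 arrays of P1 was left out (adjusted p from 0.089 to 0.187).

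**Figure D3:**
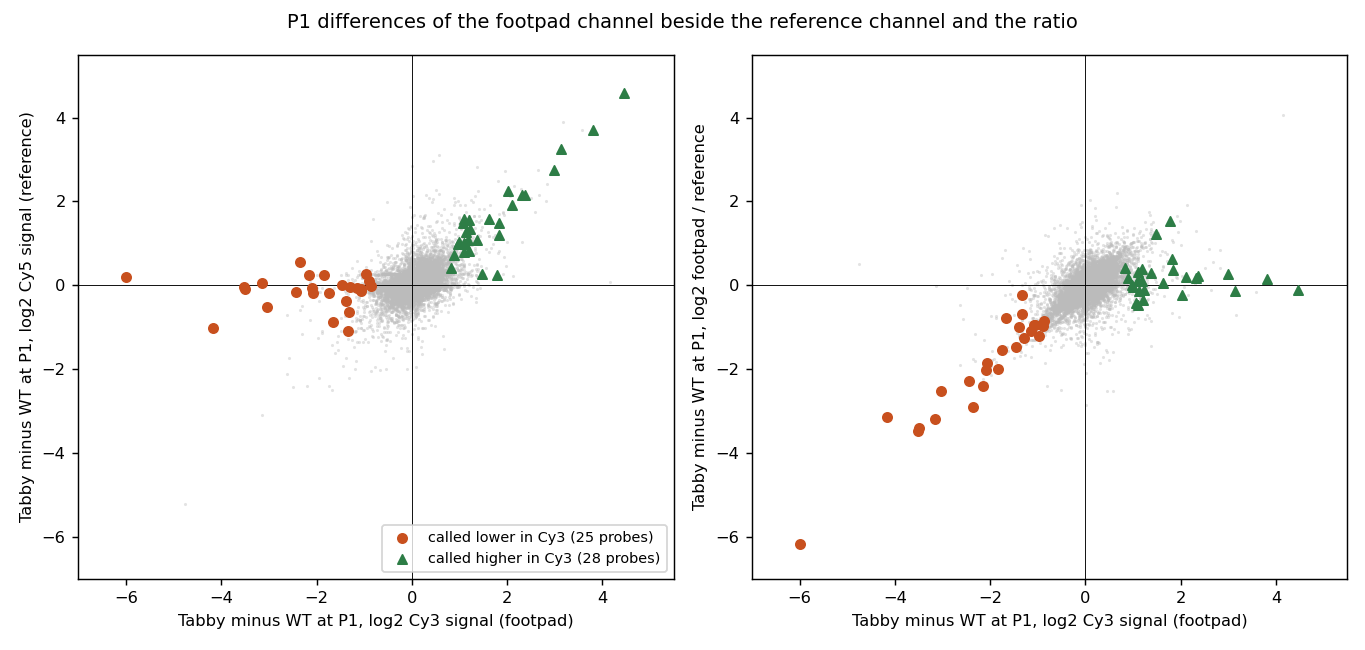
Tabby minus WT difference at P1 in log2 Cy5 signal (left) and in log2 ratio (right), each against the difference in log2 Cy3 signal, with grey points for all probes tested, orange circles for the 25 called lower and green triangles for the 28 called higher by Cy3 signal; 1 or more grey points beyond the axis limits are not drawn. Most lower probes lie near 0 in Cy5 and fall in ratio, while the higher probes rise in Cy5 with Cy3 and most stay near 0 in ratio. Of the 25 lower probes 2 differ by at least 1 in Cy5, and of the 28 higher probes 2 differ by at least 1 in ratio.

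Of the probes lower by both measures at P1, Z00020870-1 was the brightest. The footpad channel read 470 and 780 in WT and 184 and 174 in Tabby at E17.5, and 2834 and 2743 in WT and 203 and 116 in Tabby at P1. WT signals were higher at P1 than at E17.5, Tabby signals of the stages overlapped before centring, and the genotypes did not overlap at either stage. In log2 Cy3 signal relative to the array, Tabby stood at -3.25 ± 0.05 (SD, n = 2) at E17.5 and lower, at -4.05 ± 0.39, at P1. WT stood at -1.50 ± 0.52 and 0.12 ± 0.07. The P1 difference was -4.17 ± 0.27 in Cy3 signal (adjusted p = 0.0089) and -3.15 ± 0.21 in ratio (adjusted p = 0.0333). The E17.5 difference was -1.75 ± 0.27 in Cy3 signal (adjusted p = 0.502). Its Cy5 signal moved with its Cy3 signal, 143 and 136 beside WT and 74.7 and 61.7 beside Tabby at P1, a difference of -1.02. Leaving out any 1 of the P1 arrays ended the ratio call (adjusted p from 0.0762 to 0.301).

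Z00025973-1 was at background in both genotypes at E17.5 and was lower in Tabby at P1. In Cy3 it read 4.17 and 4.78 in WT and 5.01 and 4.36 in Tabby at E17.5, all surrogate values, and 88.6 and 112 in WT and 8.88 and 8.63 in Tabby at P1. WT was well above background on both P1 arrays and Tabby on neither. As for Z00077373-1, no bound on the fold is given at P1. The P1 difference was -3.50 ± 0.15 in Cy3 signal (adjusted p = 0.00306) and -3.40 ± 0.18 in ratio (adjusted p = 0.0143). The ratio call was lost without WT P1 replicate 1, WT P1 replicate 2 or Tabby P1 replicate 1 (adjusted p = 0.155, 0.116 and 0.0762) and with the 4 arrays of P1 fitted alone (adjusted p = 0.166). Its reference signal was 804 to 1071 on the 8 arrays and overlapped between the genotypes at P1.

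Z00024139-1 had a Cy3 signal of 79.8 and 75.2 in WT and 34.6 and 44.1 in Tabby at E17.5, and 130 and 207 in WT and 40.1 and 25.2 in Tabby at P1. Both Tabby arrays lay below both WT arrays at each stage. Its P1 difference was -2.35 ± 0.25 in Cy3 signal (adjusted p = 0.0345) and -2.90 ± 0.18 in ratio (adjusted p = 0.0223), and the ratio call was lost when any 1 of the 4 arrays was left out.

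On the E17.5 arrays, which entered the spread and the background filter of the P1 test but not its difference, 24 of the 25 probes lower at P1 in Cy3 signal were lower in Tabby as well, with a median difference of -0.55, while 15700 of the 29814 probes tested were lower. Of the 28 probes higher at P1, 9 were lower at E17.5, with a median of 0.02.

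The difference between the stages was tested as the genotype by stage term. By Cy3 signal 4 probes (0.0134%) passed, 1 (0.00335%) of negative sign, Z00025973-1 (-3.58 ± 0.21, adjusted p = 0.0219), and 3 (0.0101%) of positive sign. Of these 3, Z00074831-1 (3.52 ± 0.22, adjusted p = 0.0219) was lower in Tabby at E17.5. Z00041605-1 and Z00044657-1 (2.97 ± 0.19 and 3.11 ± 0.21, adjusted p = 0.0219 for each) were higher in Tabby at P1 in both channels. By ratio limma called 0 probes, with 1214 (4.07%) at an unadjusted p under 0.05 against 1178 (3.95%) by Cy3 signal. The Cy3 count was 0 without each of 5 arrays in turn, WT E17.5 replicate 1, both Tabby E17.5 arrays and both WT P1 arrays. It was 1 without Tabby P1 replicate 2, 2 without WT E17.5 replicate 2 and 16 without Tabby P1 replicate 1.

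The 12 later arrays did not enter the fits above. On their slides too WT samples lay at positions 1 and 2 and Tabby samples at positions 3 and 4. Genotype and position therefore cannot be told apart at the later stages either. They were fitted separately over 31312 probes, and limma called lower in Tabby 0.252% of these at P3, 0.661% at P5 and 4.23% in the adult by Cy3 signal, and 0.137%, 0.565% and 4.51% by ratio. Of the 5 probes called at E17.5 and P1, Cy3 signal called 3 lower at P3, the same 3 at P5 and 2 in the adult. The ratio called 3, 3 and 1.

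Z00036698-1 kept its size at every later stage. At P3 its Cy3 signal was 1228 and 1276 in WT and 205 and 194 in Tabby, with 1073 and 1245 against 197 and 203 at P5, and 364 and 343 against 59.2 and 46.9 in adults. Signal was lower in adults in both genotypes, and the genotypes did not overlap at any stage. The Cy3 difference was -2.63 at P3, -2.62 at P5 and -2.60 in adults (adjusted p = 4.36e-05, 1.9e-05 and 1.07e-05), and the ratio difference was -2.45, -2.30 and -2.51 (adjusted p = 0.0059, 0.00182 and 0.000256).

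Z00077373-1 was detected in Tabby after P1 and in neither genotype in adults. The P3 Cy3 signal was 1310 and 1015 in WT and 68.9 and 34.7 in Tabby, with 698 and 707 against 43.5 and 40.3 at P5, and 7.04 and 6.72 against 11.4 and 7.27 in adults. The Cy3 difference was -4.54 at P3 (adjusted p = 0.00061) and -4.16 at P5 (adjusted p = 0.000271), and the ratio difference was -4.83 and -3.94 (adjusted p = 0.00203 and 0.00119). The adult signals were near background in both genotypes, with no fold given.

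Z00022365-1 had its highest signals in adults in both genotypes. Its Cy3 signal was 703 and 583 in WT and 60.2 and 25.3 in Tabby at P3, 1377 and 1558 against 72.8 and 88.4 at P5, and 24606 and 24231 against 246 and 655 in adults. The Cy3 difference was -4.02, -4.28 and -5.78 (adjusted p = 0.0382, 0.0151 and 0.000855). The ratio difference was -1.49, -2.89 and -0.48 (adjusted p = 0.0299, 0.00045 and 0.153). In adults its Cy5 signal was 1716 and 1512 beside WT and 24.6 and 55.6 beside Tabby, so the reference channel was high on the arrays where the footpad channel was high; the source of this was not tested. Z00054739-1 had no call at a later stage, with Cy3 differences of -2.43, -1.80 and -1.59 (adjusted p = 0.0675, 0.131 and 0.063) and ratio differences of -1.71, -2.69 and -2.12. Z00023123-1 differed by -0.56, -0.48 and 0.12 in Cy3 signal (adjusted p = 0.352, 0.513 and 0.793).

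Of the other probes lower at P1 by both measures, Z00025973-1 had a Cy3 signal of 707 and 700 in WT and 13.9 and 6.85 in Tabby at P3, 1887 and 2575 against 10.2 and 7.23 at P5, and 1229 and 788 against 17.6 and 8.37 in adults. WT was highest at P5 and Tabby stayed near background throughout. The Cy3 difference was -6.15, -8.10 and -6.20 (adjusted p = 0.000388, 1.99e-05 and 3.27e-05), and the ratio difference was -6.13, -7.99 and -6.19 (adjusted p = 0.00121, 5.27e-05 and 4.28e-05). Z00020870-1 reached 83044 and 54246 in WT adults against 4572 and 1711 in Tabby adults, with Cy3 differences of -4.42, -4.95 and -4.44 at P3, P5 and adult age (adjusted p = 0.000867, 0.000198 and 9.79e-05). Its ratio differences were smaller, -2.23, -2.18 and -1.10 (adjusted p = 0.00203, 0.000559 and 0.0038). Z00024139-1 was lowest in adults in both genotypes and differed by -2.24, -1.59 and -1.15 in Cy3 signal (adjusted p = 0.00785, 0.0151 and 0.021). Its ratio differences were -1.83, -1.66 and -0.22 (adjusted p = 0.0633, 0.0429 and 0.666), and in adults it was well above background on 0 of 4 arrays.

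**Figure D4:**
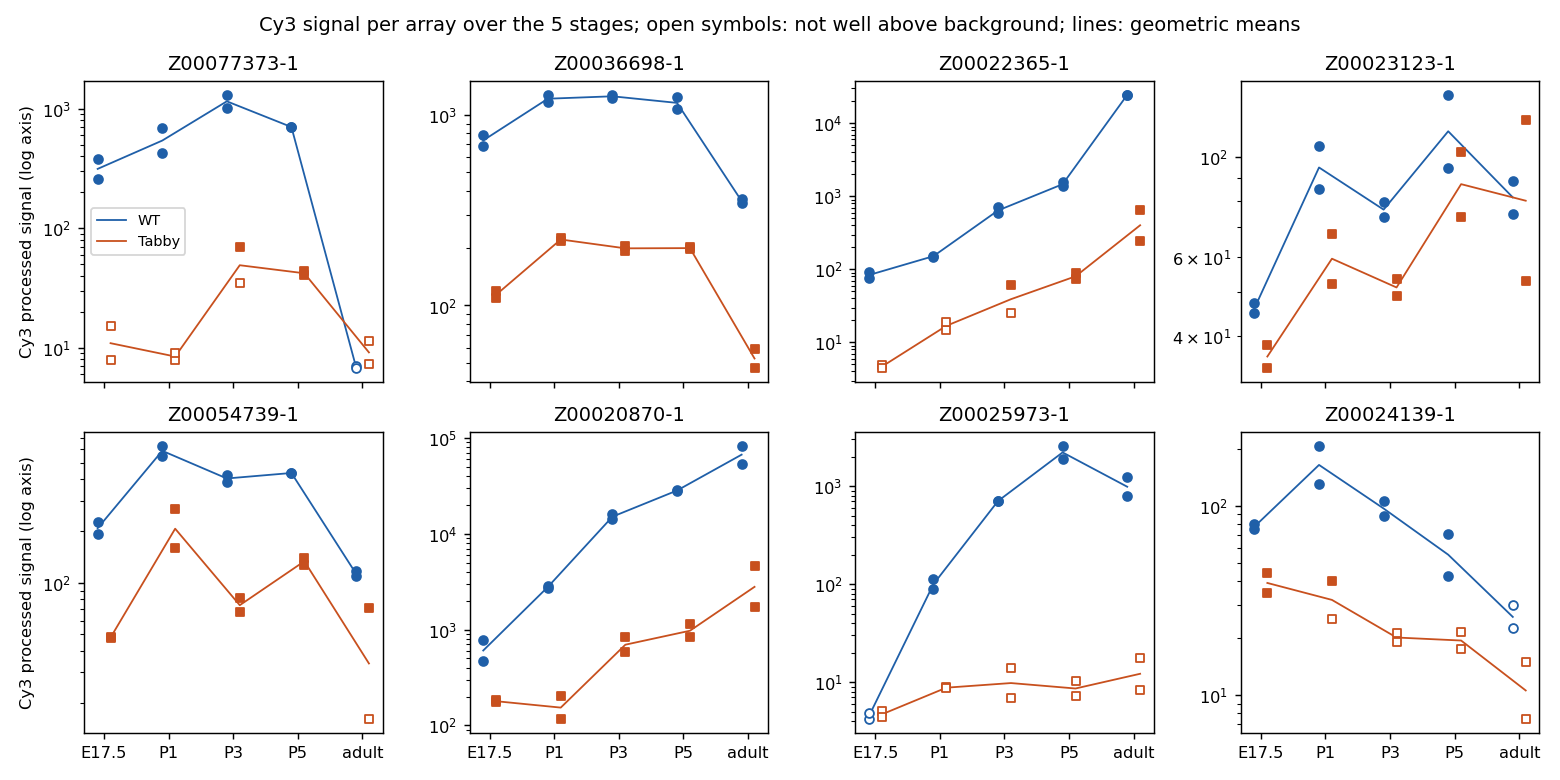
Cy3 processed signal on a log axis at the 5 stages, 1 symbol per array (blue circles WT, orange squares Tabby, open where not well above background) and lines through the geometric means of 2 arrays, for the 5 probes called over E17.5 and P1 and 3 called at P1. The WT mean lies above the Tabby mean from P1 to P5 in every panel, Z00025973-1 separates from P1 onward, and Z00077373-1 is near background in both genotypes in adults.

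As groups, the lower probes of P1 were mostly on the same side at each later stage. The higher probes were so at P3 and P5, while in adults their share was near that of all probes. Of the 25 lower probes, 24 were tested later, and 100%, 95.8% and 79.2% were lower in Tabby in both measures at P3, P5 and adult age, where 37.2%, 40.4% and 36.2% of all probes tested were. Calls for lower by both measures were 9, 10 and 7, against 0.118%, 0.463% and 3.19% of all 31312 probes. Of the 28 higher probes, 22 were tested later, and 72.7%, 86.4% and 54.5% were higher in both measures, where 43.8%, 39.8% and 48.2% of all probes tested were. Cy3 calls higher in Tabby were 5 at P3, 6 at P5 and 0 in adults, against 0.15%, 0.307% and 1.93% of all probes, and 0 were called higher by both measures at any of these stages, against 0.0192%, 0.0894% and 0.964% of all probes. Their median ratio difference was 0.13, 0.15 and 0.11.

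The wider separated sets moved less. Of the 395 lower probes 392 were tested later, and 80.4%, 79.3% and 57.9% were again lower in both measures. Of the 377 higher probes 369 were tested, and 74.5%, 71.5% and 56.4% were again higher in both, against 43.8%, 39.8% and 48.2% of all probes. Their median later Cy3 differences were small, -0.29 to -0.12 for the lower set and 0.10 to 0.14 for the higher set. Of the 22 probes lower by at least 2-fold, 19 were tested later, and 94.7%, 78.9% and 63.2% were lower in both measures, with 6, 7 and 6 called lower by both, beside the all-probe shares of 0.118%, 0.463% and 3.19%.

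Some of the 22 differed more at later stages than in the pooled comparison. Z00062492-1 had a Cy3 signal of 141 and 137 in WT and 49.2 and 71 in Tabby at E17.5, and 457 and 455 against 53 and 57.6 at P1. It reached 13882 and 10538 in WT adults against 106 and 207 in Tabby adults, and its Cy3 difference was -2.13 pooled (adjusted p = 0.268), then -4.27, -5.53 and -6.21 (adjusted p = 0.00805, 0.000635 and 0.000103). By ratio it was -1.85 pooled (adjusted p = 0.336), then -3.28, -4.19 and -3.26 (adjusted p = 0.0371, 0.00429 and 0.00363). Z00059229-1 differed by -1.37 pooled (adjusted p = 0.556) and by -3.95, -4.05 and -5.93 later (adjusted p = 0.00061, 0.000183 and 1.17e-05), with ratio differences of -1.69 pooled and -4.06, -3.85 and -3.95 later. Others did not stay lower: Z00026540-1 went from -1.97 pooled (adjusted p = 0.439) to 2.43 in adults (adjusted p = 0.0572), and Z00031900-1 from -1.33 (adjusted p = 0.62) to 1.79 (adjusted p = 0.13).

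**Figure D5:**
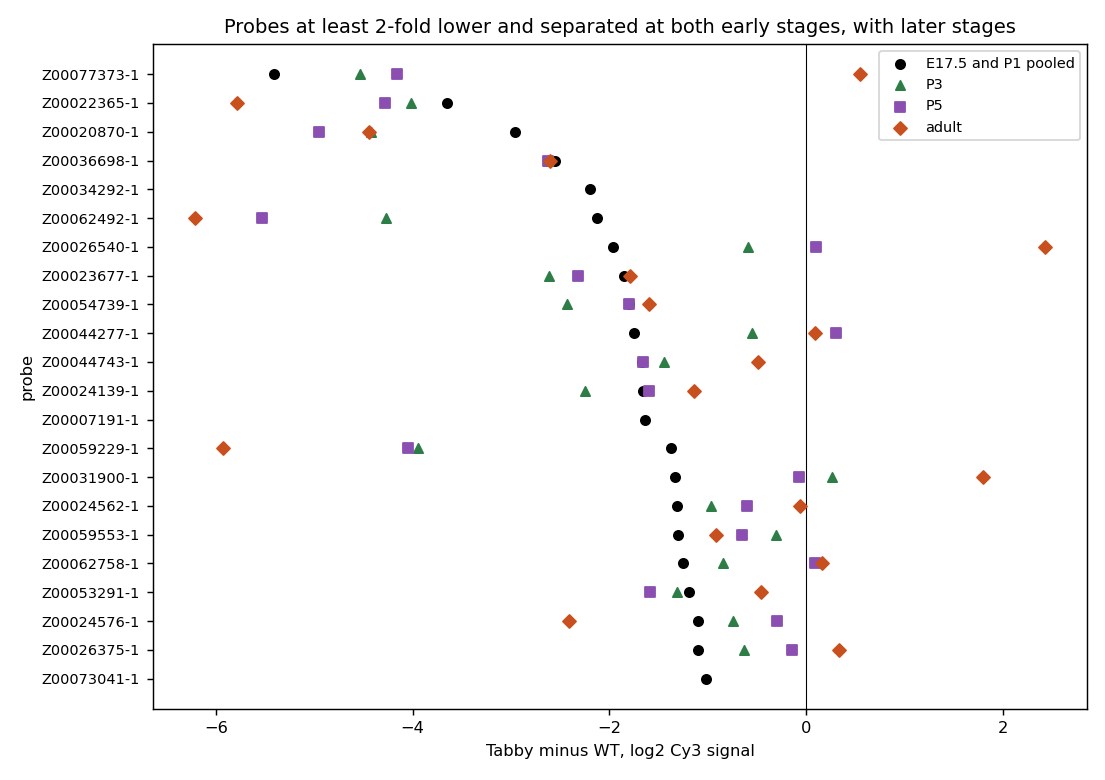
Tabby minus WT difference in log2 Cy3 signal (horizontal) for the 22 probes at least 2-fold lower and separated at E17.5 and P1 (vertical, ordered by the pooled difference), with black circles for the pooled difference and coloured symbols for P3, P5 and adult; 3 probes were not tested later. Z00062492-1, Z00059229-1 and Z00022365-1 lie furthest to the left in adults, while Z00026540-1 and Z00031900-1 lie to the right of 0.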

How the data were processed

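RNA of mouse footpad skin (Cy3) and a common reference (Cy5) were hybridised to 2-colour Agilent arrays of 60-base probes. Per the file headers, the authors' scanner files came from Feature Extraction 9.5.1.1 and give, per spot, a processed intensity in each channel, background-subtracted and dye-normalized, and a log10 ratio of Cy5 over Cy3. The sign of that log10 ratio was turned and converted to log2 from the deposited values, so that positive means more in footpad. The reference RNA is the same on all arrays per the labels. Of 43451 spots, 1417 control spots were left out and the 42034 probe spots were averaged by probe to 42006. Outlier spots were left out, which left 36 probe values of the 8 arrays missing in Cy3 and 37 in ratio.

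Cy3 intensity was set as log2 minus the 75th percentile of the array, and ratios were centred on the array median. limma 3.58.1 in R 4.3.3 (lmFit and eBayes) fitted genotype with stage as a block over the 8 arrays (5 residual degrees of freedom), and genotype within each stage and genotype by stage in a group model; p-values were adjusted by Benjamini-Hochberg. The scripts were tested on simulated data. p-values measure the spread between arrays labelled biological replicates, moderated across probes by eBayes. In the pooled fit this spread also holds any change of the genotype difference between the stages. Probes lower or higher in each comparison were named where called by both measures with the arrays of the genotypes separated at both stages, filled up to 5 per direction with separated probes called by 1 measure. Beyond that rule, Z00061353-1, Z00064673-1 and Z00025024-1, the 3 probes called by both measures at P1 alone, and the probes named from the separated and the detection lists were chosen after their values were seen. The members and lists were chosen with earlier results of these data known.

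The authors' deposited value table holds 25030 probes on a log10 scale. Within probes its values follow the turned ratio of the same array (r from 0.94 to 0.98), which gives its direction, and its column medians were 2.58 to 2.59 for E17.5 and 2.57 for P1. How it was centred stays unknown, and it was used only as an alternative. Gene lists could not be applied, since no table pairing these probes with genes was used here. Promoter and miRNA sequences of RefSeq (GRCm38.p6) matched none of the printed probes. Alternatives to background, centring, filter, spread, arrays and block were run.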

Additional observations from a re-analysis of the deposited data

Results flagged for a closer look

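4 probes differed between E17.5 and P1 in the size of the genotype difference by limma's genotype by stage term, all at an adjusted p of 0.0219 in Cy3 signal and none by ratio. Z00025973-1 had a P1 difference minus E17.5 difference of -3.58, with all 4 arrays of E17.5 at background. Z00074831-1 had 3.52, with a lower signal in Tabby at E17.5, on the slide where its reference signal was near background. Z00044657-1 had 3.11 and Z00041605-1 had 2.97, both with signal at P1 in the 2 Tabby arrays. The Cy5 difference at P1 was 3.26 for Z00044657-1 and 2.76 for Z00041605-1, and their ratio differences were -0.15 and 0.28. Each of the 4 calls was lost in 7 of the 8 fits that left out 1 array, with adjusted p up to 0.25.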

How the results depend on the processing

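The pooled count by Cy3 signal was 4. It was 68 (51 lower) with all 20 arrays in the fit, 18 (16 lower) with array weights, 18 (17 lower) with a trended robust spread, 7 (6 lower) with no centring and 12 (11 lower) without background subtraction. It was 0 with normexp on the mean signals (449 at an unadjusted p under 0.05), which moved the median of all probes to 0.13 and gave Z00023123-1 a Cy3 difference of 0.34. Leaving out 1 array gave 2 to 4. The pooled count by ratio was 3. It was 35 (29 lower) with all 20 arrays, 15 (14 lower) without background subtraction and with loess, 5 of 18390 probes in the deposited value table, and 2 in each fit that left out 1 array. The causes were not tested.

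Replicate numbers are shared between genotypes in the labels. Same-numbered arrays did not deviate together (r = -0.07 at E17.5 and -0.11 at P1 in Cy3 signal, -0.07 and -0.01 in ratio), so the numbers were not taken to pair samples. With the replicate block the pooled count was 1 by Cy3 signal and 1 by ratio. Crossing the numbers at P1, chosen after seeing the data, gave 1 and 2.

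Within E17.5, leaving out 1 array gave 0 to 4 by Cy3 signal and 0 by ratio, and the 4 arrays alone gave 0 by ratio. Within P1 it gave 24 to 132 by Cy3 signal and 1 to 7 by ratio, and the 4 arrays alone gave 7 and 1. For genotype by stage it gave 0 to 16 by Cy3 signal and 0 to 1 by ratio. At P3 it gave 1 to 3 of the 5 named probes by ratio, chosen after seeing the data. The P1 Cy3 difference of Z00025024-1, near 0, ran from -0.22 without Tabby replicate 1 and -0.10 without WT replicate 2 to 0.22, and the P1 ratio difference of Z00064673-1 from -0.11 without WT replicate 1 to 0.41. Of the alternative values for single probes, 291 stayed on their side of the threshold, 122 lost a call, 5 gained one and 4 changed sign. For probes not above background in Tabby the depth of signal gives at most a bound.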
